A study of Mus musculus with 12 samples.

Results

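The response of MyD88-null macrophages to apoA-I was read from 6 of the 12 arrays of the series: 3 arrays of MyD88-/- cells given apoA-I and 3 of MyD88-/- control cells, chosen by sample title and source name. The remaining 6 arrays hold the same pair of groups from C57BL/6 mice. All mice were female and 10 weeks old, and the cells of all groups were peritoneal macrophages collected 96 h after an injection of thioglycolate, which draws in blood-derived phagocytes. Controls and treated cells alike were loaded overnight with cholesterol at 10 µg/ml in medium holding 2 mg/ml albumin and 0.1% serum, and were then given medium with 25 µg/ml of polymyxin B, which neutralises bacterial lipopolysaccharide. For treated cells the labels add 30 min in that medium and then 2 h with apoA-I at 10 µg/ml, while for controls they end at the polymyxin medium and do not say how long the cells stayed in it. Whether the 3 samples of a group came from separate mice or from a pool is not stated in the labels, so the p-values reflect sample-to-sample variation that may be technical.

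ApoA-I, the chief protein of high-density lipoprotein, takes up cholesterol that macrophages export through the transporter ABCA1. MyD88 is the adaptor protein through which the interleukin-1 receptor and most Toll-like receptors activate the NF-kappaB transcription factors, so a null cell lacks that route. Toll-like receptors 3 and 4 can also signal through a different adaptor, TRIF, which leads to interferon beta and, through the interferon receptor, to interferon-stimulated genes. NF-kappaB dimers are held inactive by inhibitor-of-kappaB proteins, and the genes of several of these inhibitors are themselves NF-kappaB targets.

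A value below is the log2 processed Cy3 signal of a probe minus the log2 of its array's 75th percentile, so that 0 marks the 75th percentile. Levels of different probes are not compared. Groups follow the titles, although the free-text description of MyD88-null apoA-I replicate 2 leaves the apoA-I step out and that of C57BL/6 control replicate 2 includes it. With both samples left out, 160 genes were higher and 3 lower, and with the treatments of the descriptions 1 was higher and 0 lower, with 1545 genes at an unadjusted p under 0.05 in limma's test. MyD88-null apoA-I replicate 1 stood apart: 73.64% of its probes were well above background, against 57.56% to 67.08% on the other 11 arrays. The lowest correlation within its group, 0.9151, was between replicates 1 and 3, and so sets neither of them apart. In each pair of null arrays of one number the apoA-I array had the lower 75th percentile, 199.5 against 338.6, 370.6 against 591 and 936.5 against 1241 intensity units. Probe positions are those of build mm7, as the array files give them. The Myd88 probe (chromosome 9, 119016408 to 119016467) was lower in null than in C57BL/6 control cells by a log2 difference of -1.52 (adjusted p = 0.00396), and without the replicate block adjusted p = 0.215. No source used here says whether that probe lies outside the deleted part of the gene. The 7 macrophage markers (Adgre1, Cd68, Csf1r, Lyz2, Fcgr1, Mertk and Itgam) were well above background on all 6 null arrays.

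ApoA-I changed 682 of the 16742 genes tested in MyD88-null cells at an adjusted p under 0.05, with 580 higher (3.46% of all genes) and 102 lower (0.609%). Among the higher genes, 76 rose by less than 1 log2 unit, 314 by 1 to 2, 101 by 2 to 3, 46 by 3 to 4 and 43 by more than 4. Among the lower genes, 52 fell by less than 1, 43 by 1 to 2, 6 by 2 to 3 and 1 by more than 3. So the rises reached further than the falls, and most of the higher calls were of middle size. That profile rested in part on the replicate block. Without it 2 of the 76, 48 of the 314, 62 of the 101, 38 of the 46 and 39 of the 43 kept their calls. For all 682 genes the 3 same-numbered differences ran one way, which the block in the fit favours. In 508 of them (74.5%) the 3 treated arrays did not overlap the 3 controls, against 11.6% of all genes tested. The smallest shifts came from replicate 3: the median difference of the higher genes was 1.77, 1.78 and 1.31 in pairs 1, 2 and 3, and that of the lower genes -1.11, -1.15 and -0.66, while all genes had 0.11, -0.02 and 0.07.

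The null arrays were scanned on 3 days, with 1 control and 1 treated array on each. Differences within a day ran in the called direction on all 3 days for 558 of the 580 higher and 101 of the 102 lower genes, with medians of 1.64, 1.95 and 1.31 for the higher genes, -1.26, -1.14 and -0.66 for the lower genes and -0.11, 0.15 and 0.07 for all genes. With scan day as a block in place of the number 328 genes were higher and 29 lower, and with slide as a block 222 and 5.

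The number of calls depended on how the arrays were paired and scaled. Without the replicate block, 189 genes were higher and 2 lower, and all 191 were among those called with it. Leaving out 1 null array gave 310, 244 and 413 higher genes without control 1, 2 and 3, and 382, 242 and 587 without apoA-I 1, 2 and 3. The lower genes then numbered 5, 5, 35, 33, 6 and 154. Higher genes made up 85.0% of the calls, but 74.5% with the deposited value table, 73.1% with cyclic loess, 69.8% with quantile normalization and 56.4% with arrays centred on their median, which moved the median change of all genes from 0.05 to -0.40. No gene called here changed direction and passed the threshold under any of these settings.

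**Figure D1:**
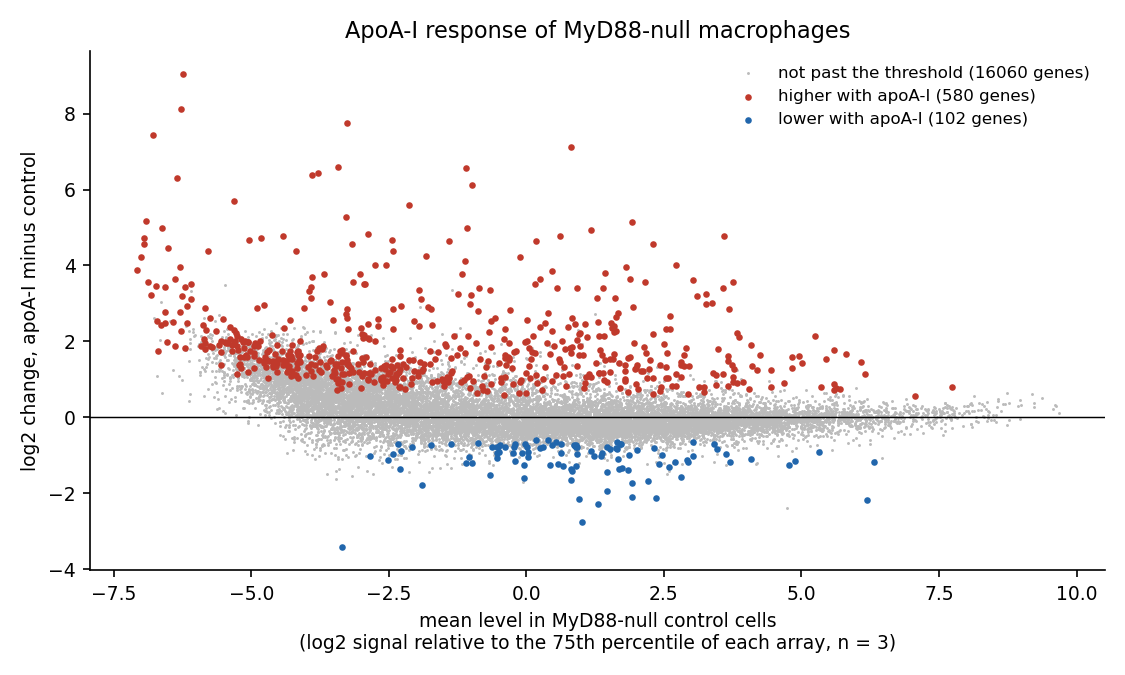
Log2 change with apoA-I (vertical axis) against the mean level in MyD88-null control cells (horizontal axis, log2 signal scaled to each array's 75th percentile, n = 3) for the 16742 genes tested; coloured points are the 580 genes called higher and the 102 called lower. The higher genes spread over all levels and reach changes above 4, while the lower genes lie mostly in the middle of the level range; the cloud of dim genes at the left sits above 0.

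Dim genes as a class lay above 0 in the null cells. Among the 961 genes with a mean level under -4 over the 12 arrays, the median change was 0.96, among the 2295 genes from -4 to -3 it was 0.58, and among the 2020 genes from -3 to -2 it was 0.39. Between -2 and 0 it was 0.02, and the 3 brighter classes had -0.12, -0.08 and 0.01. The same dim classes had medians of 0.03, 0.04 and 0.03 in C57BL/6 cells. Without apoA-I replicate 1 the 3 dim classes had 0.61, 0.34 and 0.21 in null cells, and with cyclic loess normalization, which levels such trends between arrays, 0.29, 0.08 and 0.12. Of the 202 higher calls in these 3 classes, 71 held with cyclic loess, against 345 of the 378 brighter ones. Rises above 3 were little touched (87 of 89 held), while of those from 1 to 2 units 189 of 314 did.

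Cytokine genes were among the largest rises. Of 22 measured cytokine genes 11 rose and none fell, with a median change of 1.86, or 1.65 with 6 genes at their bound. A gene is called dark where all 3 arrays of a group failed to lie well above background, and its change is then known as a bound alone. Since a gene was measured if it was well above background in any 1 group, a list can hold genes that entered through the treated arrays alone. With probes above background on all 12 arrays, 5 of 15 cytokine genes rose with a median of 0.74. Il1b, which encodes the fever-inducing interleukin-1 beta (chromosome 2, 129105464 to 129105523), read -6.42, -6.41 and -5.91 in control cells and 2.96, 2.69 and 2.72 with apoA-I. All 3 treated arrays were far above all controls, none of which was well above background. The rise was at least 212-fold (adjusted p = 5.18e-06), where "at least" sets the treated mean against, on each control array, the dimmest value that is well above background or the probe's own value if that is higher.

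Tnf, the gene of tumour necrosis factor (chromosome 17, 33296067 to 33296126), read -0.96, -0.37 and -1.64 in control cells and 5.37, 5.69 and 4.34 with apoA-I, and was measured on every array. It rose 69.8-fold, a log2 change of 6.13 (SE 0.31, adjusted p = 4.04e-05, n = 3 per group). Tnfsf9, the T cell costimulator 4-1BB ligand (chromosome 17, 55318447 to 55318506), went from -4.05, -3.40 and -4.23 to 3.14, 2.62 and 1.72, a rise of 6.39 (SE 0.33, adjusted p = 4.04e-05). For both genes replicate 3 was the lowest treated array, and the groups did not overlap. Tnfsf4, which encodes the OX40 ligand, read -1.92, -1.45 and -1.85 with apoA-I and was dark in every control, a rise of at least 9.2-fold with adjusted p = 0.0444. That call was lost without any 1 of the 6 null arrays and with cyclic loess (adjusted p = 0.0901). Il23a, a subunit of interleukin 23, rose at least 6.58-fold (adjusted p = 6.18e-05), and Il1a rose by 3.11 (SE 0.25, adjusted p = 0.000279).

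Chemokines, the proteins that draw in other leukocytes, had 12 of 16 measured members higher and none lower, with a median change of 3.74; with probes above background on all 12 arrays 7 of 10 rose, with a median of 2.45. Cxcl10, the interferon-induced attractant of T cells (chromosome 5, 92334002 to 92334061), read -4.46, -2.24 and -3.10 in control cells and 3.72, 5.04 and 4.72 with apoA-I. It was well above background on 2 of 3 control arrays, and its rise of 7.76 (SE 0.46, 217-fold, adjusted p = 6.85e-05) was the largest among genes measured in both groups. The neutrophil attractant Cxcl1 (chromosome 5, 90882059 to 90882118) read -4.83, -1.90 and -4.61 in control cells and 1.96, 3.40 and 2.60 with apoA-I. One control, replicate 2, was higher than the other two, and all treated arrays lay above it. Cxcl1 rose by 6.44 (SE 0.65, adjusted p = 0.00107).

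Cxcl2, a second neutrophil attractant (chromosome 5, 90894748 to 90894807), was dark in all controls and read 2.34, 2.30 and 0.94 with apoA-I, at least 111-fold higher (adjusted p = 8.46e-05). The monocyte attractant Ccl2 (chromosome 11, 82118723 to 82118782) went from 0.44, 2.70 and 0.37 to 5.75, 6.84 and 5.75, a rise of 4.94 (SE 0.28, adjusted p = 6.85e-05). Control replicate 2 was again the highest control, and the treated array of that number the highest treated one. Ccl4 rose by 5.16 (adjusted p = 0.000317), with treated values of 8.23, 6.91 and 6.08 that were highest in replicate 1. Cxcl3 had treated values of -2.04, 1.36 and 0.59, and its call (adjusted p = 0.0239) was lost without null control 1 and 2 or apoA-I 2 and 3. The smaller rises of Ccl3, 2.68 (adjusted p = 0.000241), and Ccl9, 2.21 (adjusted p = 0.000264), were measured on every array and had groups that did not overlap.

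The stretches that carry NF-kappaB, interferon and AP-1 motifs within 250 bases before the RefSeq starts (build GRCm38.p6) of 4 of these genes are shown as rises whose windows hold matches. Of the 48 genes named by size or p that had a window, 14 held any match, and Il1b, Tnf, Ccl3 and Acod1 held none. Capitals mark matches, on either strand, to the NF-kappaB decamer consensus, the interferon response element GAAANNGAAA or the AP-1 element TGANTCA; the stretches lie at chr5:92348947-92349112 on the minus strand, chr5:90891164-90891194 on the plus strand, chr5:90903792-90903822 on the plus strand and chr4:88522891-88522920 on the minus strand.
Cxcl10: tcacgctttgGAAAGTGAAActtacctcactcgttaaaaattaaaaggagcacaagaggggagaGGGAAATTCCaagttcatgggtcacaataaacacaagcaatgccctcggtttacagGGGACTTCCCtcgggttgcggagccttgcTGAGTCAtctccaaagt
Cxcl1: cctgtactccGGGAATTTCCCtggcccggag
Cxcl2: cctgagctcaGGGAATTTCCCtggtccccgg
Ifnb1: aactgaaagtGGGAAATTCCtctgaggcag
The Cxcl10 stretch holds an interferon response element, a pair of NF-kappaB matches and an AP-1 match, and the other 3 hold an NF-kappaB match each. A match of letters describes the sequence and says nothing of whether a factor was bound.

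**Figure D2:**
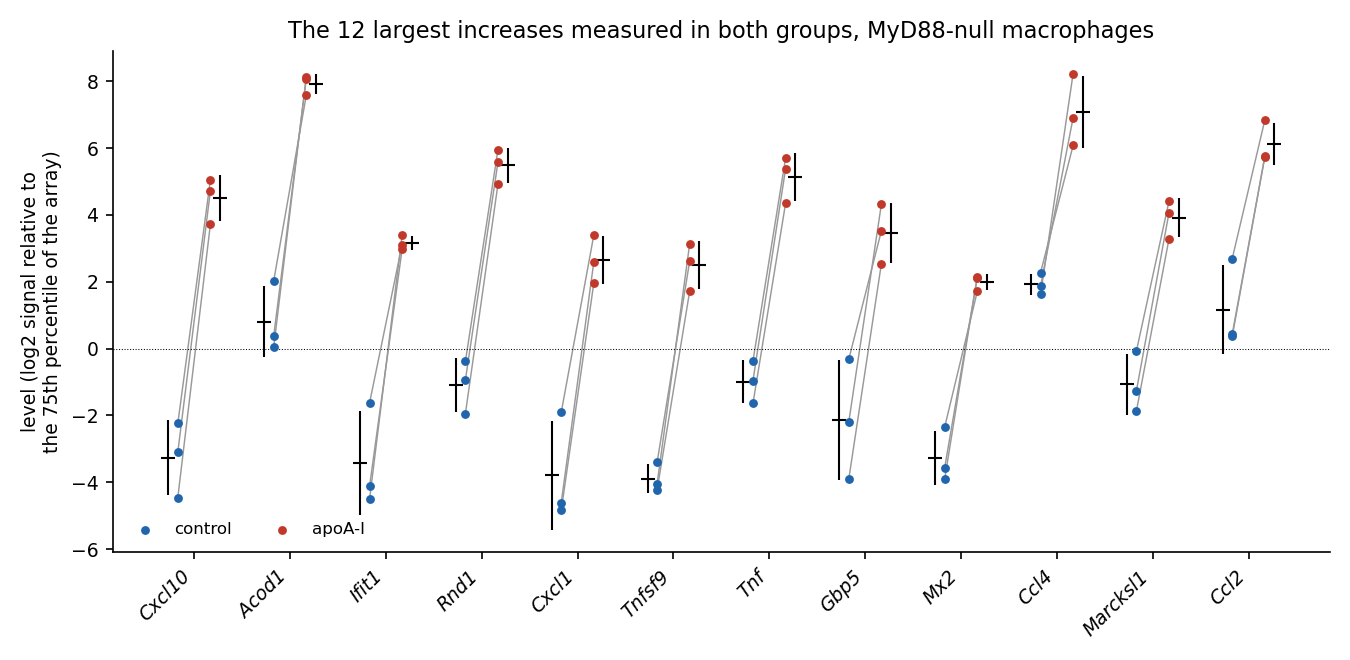
Levels on each MyD88-null array (log2 signal, scaled to each array's 75th percentile) of the 12 largest rises measured in both groups; points are arrays, thin lines join arrays of one replicate number, and bars are the mean ± SD of 3 arrays. In every gene the 3 treated points lie above the 3 control points, from Cxcl10 with a change of 7.76 to Ccl2 with 4.94.

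Interferon beta and genes that interferon induces rose as well. Ifnb1, the interferon beta gene (chromosome 4, 87925845 to 87925904), was dark in all controls and read 1.95, 0.24 and -0.24 with apoA-I, at least 48.1-fold higher (adjusted p = 0.000126). Of the 14 genes for interferons, their receptors and the interferon regulatory factors, 2 rose, Ifnb1 and Irf1, and 1 fell, Irf8. Irf1 (chromosome 11, 53733970 to 53734029) went from 3.84, 3.74 and 3.72 to 7.66, 7.57 and 6.79, a rise of 3.58 (SE 0.18, adjusted p = 4.03e-05). Its controls agreed closely, and all treated arrays stood above them. The receptor subunit Ifnar1 had a change of 0.56 that missed the threshold (adjusted p = 0.0744).

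Among 28 measured interferon-stimulated genes 13 rose and none fell, with a median change of 1.45. For probes above background on all 12 arrays 12 of 26 rose, with a median of 1.19. Ifit1, an antiviral RNA-binding protein (chromosome 19, 34350610 to 34350669), read -4.13, -4.51 and -1.63 in control cells and 2.97, 3.40 and 3.11 with apoA-I. Control replicate 3 was the highest control, while the treated arrays were close together. The rise was 6.58 (SE 0.61, adjusted p = 0.000659). Isg15, a ubiquitin-like modifier, rose by 4.77 (SE 0.48, adjusted p = 0.0011). Mx2, an antiviral dynamin-like GTPase (chromosome 16, 97944478 to 97944537), rose by 5.26 (SE 0.41, adjusted p = 0.000256), from -3.56, -3.90 and -2.35 to 2.13, 2.15 and 1.71. Oasl1, an oligoadenylate synthetase-like protein, rose by 3.85 (adjusted p = 0.000589).

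The guanylate-binding and immunity-related GTPases, interferon-induced proteins that attack compartments holding microbes, had 9 of 14 measured members higher and none lower (median 2.05, or 1.95 with 2 genes at their bound). Gbp5 (chromosome 3, 142414754 to 142414813) read -0.31, -2.19 and -3.89 in control cells and 3.53, 4.33 and 2.55 with apoA-I, a rise of 5.60 (SE 0.65, adjusted p = 0.00218). Its controls spread widely, from replicate 1 at the top to replicate 3 at the bottom, yet all treated arrays were higher. Gbp6 rose by 3.69 (adjusted p = 0.000175), Gbp2 by 2.51 (adjusted p = 0.00453) and Gbp4 at least 4.63-fold (adjusted p = 0.00186). Genes of this family have near-identical copies, and cross-hybridisation between them was not tested.

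Ifit1 and Gbp5 are shown as the leading genes of these lists, with capitals as before, at chr19:34640775-34640823 on the plus strand and chr3:142496759-142496876 on the plus strand.
Ifit1: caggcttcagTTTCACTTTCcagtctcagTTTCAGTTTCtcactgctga
Gbp5: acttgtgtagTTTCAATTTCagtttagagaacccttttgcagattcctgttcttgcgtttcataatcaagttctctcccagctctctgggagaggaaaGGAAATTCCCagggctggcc
Ifit1 holds 2 interferon response elements and no NF-kappaB match, whereas Gbp5 holds 1 of each.

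Most genes of the NF-kappaB circuit itself rose. Of 16 subunits, inhibitors and kinases 11 rose and none fell, with a median change of 1.52. For probes above background on all 12 arrays 10 of 15 rose, with a median of 1.34. Nfkbia, the inhibitor IkappaB-alpha (chromosome 12, 53415998 to 53416493), read 3.27, 3.95 and 3.54 in control cells and 9.28, 7.95 and 7.87 with apoA-I, a rise of 4.78 (SE 0.34, adjusted p = 0.000175). Nfkbie, the inhibitor IkappaB-epsilon (chromosome 17, 43692455 to 43692514), went from -0.20, 1.05 and -0.29 to 4.57, 5.34 and 4.58, a rise of 4.65 (SE 0.23, adjusted p = 4.03e-05). All treated arrays of both genes were far above the controls, with replicate 1 highest for Nfkbia and replicate 2 for Nfkbie. The nuclear regulators Nfkbiz and Bcl3 rose by 4.39 (adjusted p = 0.00051) and 3.15 (adjusted p = 0.000211). The inhibitors Nfkbib and Nfkbid had smaller rises, 1.34 (adjusted p = 0.00144) and 1.08 (adjusted p = 0.0428), and the call of Nfkbid was lost without any 1 of the 6 null arrays. The 5 members that were not called included 4 with a change below 0.

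Genes of the NF-kappaB subunits rose in part. Nfkb2, the p100 precursor (chromosome 19, 46208290 to 46208429), rose by 2.41 (SE 0.16, adjusted p = 0.000102), from 1.62, 2.03 and 1.14 to 3.82, 4.68 and 3.50. Relb (chromosome 7, 17288747 to 17288806) rose by 2.33 (SE 0.13, adjusted p = 6.18e-05), from 2.42, 2.94 and 2.24 to 4.69, 5.28 and 4.62. In both genes replicate 2 was the highest array of each group, and the groups did not overlap. Nfkb1 had groups that overlapped, 0.35, 0.51 and 1.59 against 1.40, 3.09 and 3.06, and its call (change 1.70, adjusted p = 0.0201) was lost without null control 1 and 2 or apoA-I 2, and without the replicate block (adjusted p = 0.279). Those losses are of its brightest probe. Further Nfkb1 probes rose by 2.08, 2.37 and 2.44 (adjusted p = 0.0419, 0.00296 and 0.00602), and were not tried with arrays left out. Rel passed the threshold but was not well above background on any null array, so no fold is given; it was named after its values were seen.

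Ubiquitin regulators of NF-kappaB had 9 of 19 members higher and none lower (median 0.71). Tnfaip3, the deubiquitinase A20 (chromosome 10, 18722874 to 18722933), went from 1.66, 1.79 and 1.97 to 6.15, 5.71 and 5.44, a rise of 3.96 (SE 0.26, adjusted p = 0.000102). Its partner Tnip1 (chromosome 11, 54867762 to 54867821) rose by 1.81 (SE 0.15, adjusted p = 0.000397), from 3.61, 3.57 and 3.26 to 5.42, 5.59 and 4.86. The 3 treated arrays of each were close together and above all controls. Traf1, an adaptor of tumour necrosis factor receptors, rose by 2.74 (adjusted p = 0.000343), Tnip3 by 2.62 (adjusted p = 0.000698), and the ubiquitin ligase Peli1 by 2.47 (adjusted p = 0.0011).

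NF-kappaB matches before the starts of Nfkb2, Tnip1 and Casp4 are shown to set beside their mid-size rises; they lie at chr19:46304688-46304736 on the plus strand, chr11:54962977-54963008 on the minus strand and chr9:5308746-5308776 on the plus strand.
Nfkb2: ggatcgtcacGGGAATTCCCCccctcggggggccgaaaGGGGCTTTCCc
Tnip1: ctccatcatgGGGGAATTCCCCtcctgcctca
Casp4: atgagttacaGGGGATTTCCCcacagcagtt
Nfkb2 holds 2 NF-kappaB matches in this stretch, while Tnip1 and Casp4, an inflammatory caspase, hold 1 each.

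Across all 580 higher genes, 389 had a RefSeq promoter window, and 11.6% of these held the NF-kappaB decamer in the 250 bases before a start, 7.46% the interferon response element and 11.1% the AP-1 element. Over the 11164 tested genes with a window the shares were 5.38%, 3.32% and 6.18%. Among the 59 with a window that rose by more than 3 the shares were 28.8%, 13.6% and 22.0%, and among the 211 that rose by 1 to 2 they were 8.53%, 6.16% and 8.06%. So the share with each motif was higher in the larger rises than in the mid-size ones. Of the 85 lower genes with a window 3.53% held the NF-kappaB decamer, 3.53% the AP-1 element and 0 the interferon element, which allows a share of up to 3.53%. These shares are descriptions, and no test was made of them.

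Enzymes and effectors of inflammation had 15 of 33 measured members higher and none lower (median 1.45). With probes above background on all 12 arrays 12 of 28 rose, with a median of 1.02. Acod1, the enzyme that makes itaconate (chromosome 14, 97488885 to 97488945), read 0.04, 0.37 and 2.02 in control cells and 8.13, 8.08 and 7.58 with apoA-I. It was measured on every array, and its rise of 7.12 (SE 0.52, 139-fold, adjusted p = 0.000182) was the second largest among genes measured in both groups. Control replicate 3 was the highest control, and the 3 treated arrays nearly coincided. Olr1, the oxidised-lipoprotein receptor LOX-1, had a change of 5.69 (adjusted p = 0.000237) from controls of which 1 of 3 was above background. Tnfaip6, a hyaluronan-binding secreted protein, rose at least 9.92-fold (adjusted p = 0.000968). Ptgs2, the inducible cyclooxygenase, read -2.45, -0.65 and -1.15 with apoA-I, with 1 of 3 controls above background; its adjusted p of 0.0177 was lost without null control 1 and 3 or apoA-I 2 and 3. A further Ptgs2 probe, not tried with arrays left out, rose by 4.46 (adjusted p = 0.00911).

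Rnd1, an atypical small GTPase that loosens actin fibres (chromosome 15, 98655240 to 98655299), had the smallest p of all genes. By its brightest probe it read -0.93, -0.38 and -1.95 in control cells and 5.58, 5.95 and 4.93 with apoA-I. That was a rise of 6.58 (SE 0.18, adjusted p = 1.95e-06). Further Rnd1 probes rose less, by 2.54 and 3.45 (adjusted p = 0.0049 and 0.000143), so the size of the rise depended on the probe. Marcksl1, an actin- and membrane-binding protein (chromosome 4, 128960350 to 128960409), went from -1.26, -0.07 and -1.87 to 4.07, 4.41 and 3.28, a rise of 4.99 (SE 0.31, adjusted p = 8.46e-05). In both genes replicate 2 was highest and replicate 3 lowest in each group.

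Surface molecules through which macrophages meet T cells and vessel walls had 9 of 19 measured members higher (median 0.74). Icam1, the ligand of leukocyte integrins (chromosome 9, 20905300 to 20905359), went from 2.07, 2.60 and 2.22 to 6.79, 7.27 and 6.51, a rise of 4.56 (SE 0.18, adjusted p = 1.46e-05). Cd40 (chromosome 2, 164811455 to 164811514) went from -1.71, -1.78 and -1.98 to 2.27, 3.12 and 1.88, a rise of 4.25 (SE 0.27, adjusted p = 0.000102). Both had controls within a narrow band and treated arrays well above it. Vcam1 rose by 4.13 (adjusted p = 0.000641), with control replicate 2 at 0.28, apart from the other two controls. The Vcam1 call was lost without the block (adjusted p = 0.071) and with scan day or slide as the block (0.0896 and 0.0922). Cd83, a marker of mature antigen-presenting cells, rose by 3.40 (SE 0.18, adjusted p = 4.42e-05), and Icosl, the ligand of the T cell costimulator ICOS, by 2.85 (SE 0.13, adjusted p = 4.03e-05).

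Receptors for microbes and metabolites rose in part. Tlr2, the receptor of bacterial lipopeptides (chromosome 3, 83941473 to 83941532), read 1.18, 2.04 and 2.45 in control cells and 4.88, 5.68 and 6.00 with apoA-I, a rise of 3.63 (SE 0.25, adjusted p = 0.000141). The cytosolic peptidoglycan sensor Nod2 (chromosome 8, 87280632 to 87280686) went from -2.19, -2.83 and -2.63 to 1.06, 1.91 and 1.42, a rise of 4.02 (SE 0.31, adjusted p = 0.000264). Of 23 Toll-like receptors, adaptors and related sensors 4 rose, and Tlr1 missed the threshold with a change of 1.06 (adjusted p = 0.08). Myd88 itself was among the 4, with a rise of 1.02 (SE 0.14, adjusted p = 0.00695) from 1.87, 2.10 and 1.40 to 2.75, 3.25 and 2.43; without the replicate block its adjusted p was 0.292.

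Of 22 receptors for metabolites, purines and lysolipids 7 rose and 1 fell, with a median of 0.36; with probes above background on all 12 arrays 2 of 15 rose and 1 fell. Hcar2, the receptor of niacin and hydroxybutyrate (chromosome 5, 123109566 to 123109625), read -4.94, -4.29 and -4.03 in controls, of which 2 of 3 were above background, and -0.25, 0.68 and 0.65 with apoA-I, a rise of 4.78 (SE 0.28, adjusted p = 6.85e-05). Gpr84, a receptor of medium-chain fatty acids, had a change of 4.73 (adjusted p = 0.00825) from controls of which 1 of 3 was above background, and was lost without null apoA-I 2. Fpr2, a receptor of formyl peptides and serum amyloid A, rose at least 7.41-fold, with an adjusted p of 0.0499 that was 0.181 in the least favourable exclusion and 0.211 without the block. Lpar6, a receptor of lysophosphatidic acid, was the single member that fell.

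Early response genes differed between replicates. Of the 23 Egr, Nr4a, Ier and Klf genes and their kin 9 rose (median 1.14). Egr1, a transcription factor induced within minutes of many stimuli, read -1.43, -0.55 and -2.08 in control cells and 4.59, 0.84 and 0.59 with apoA-I, and its change of 3.36 missed the threshold (adjusted p = 0.0635). The treated array of replicate 1 was far above the other two. The same array was the highest treated one for Ier2 at 5.33 against 3.28 and 2.86, for Csrnp1 at 5.69 against 4.00 and 3.33, for Junb at 8.35 against 6.88 and 6.84, and for Dusp1 at 4.78 against 2.48 and 3.15. Csrnp1 rose by 3.41 (adjusted p = 0.0011) and 0.00757 remained the adjusted p without that array. Junb, an AP-1 subunit, rose by 1.77 (adjusted p = 0.0122), a call lost without null control 1. Dusp1, a MAP kinase phosphatase, was not called (change 1.57, adjusted p = 0.0774), nor was Fos, whose change was -0.16 (adjusted p = 0.806). The call of Ier2 (adjusted p = 0.0449) rests on 1 of its probes; the other changed by 0.38 with adjusted p = 0.446, and the call was lost without null control 1, 2 and 3 or apoA-I 2.

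Rises of 2 to 3 log2 units included regulators of signalling and survival. Cflar, the caspase-8 inhibitor c-FLIP (chromosome 1, 59009837 to 59009896), went from 3.30, 3.80 and 3.96 to 6.55, 6.74 and 6.36, a rise of 2.86 (SE 0.20, adjusted p = 0.000168). Fas, the death receptor (chromosome 19, 34028644 to 34028703), went from -0.26, 0.75 and 0.25 to 1.91, 3.11 and 2.86, a rise of 2.38 (SE 0.18, adjusted p = 0.000229). An inhibitor and a receptor of the same death pathway thus both rose, and for both the groups did not overlap. Ralgds, an activator of Ral GTPases (chromosome 2, 28560233 to 28560292), had tight groups, 3.83, 4.00 and 3.80 against 5.91, 6.06 and 6.03, and rose by 2.13 (SE 0.13, adjusted p = 8.46e-05). Trib1, a pseudokinase that directs C/EBP-alpha to degradation, rose by 2.61 (adjusted p = 0.000102), Spred1, an inhibitor of Ras signalling, by 2.01 (adjusted p = 0.000282), Rab11fip1, a Rab11 effector of recycling endosomes, by 2.83 (adjusted p = 0.00018), and Phldb1 by 2.47 (adjusted p = 0.000101). The 12 genes of this size with the smallest p, which also hold Icosl, Ccl3, Nfkb2, Relb and Ccl9, all held their calls with each null array left out, without the replicate block and with cyclic loess.

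The 12 rises of 1 to 2 units with the smallest p were Bmp2, Klf7, Klhl25, Casp4, Tnip1, Pvr, Tnfrsf1b, Dtx4, Jdp2, Btg1, Traf5 and Rhbdf2. Casp4 (chromosome 9, 5253886 to 5253945) went from 2.81, 2.80 and 3.09 to 4.86, 4.73 and 4.55, a rise of 1.82 (SE 0.15, adjusted p = 0.000305). Rhbdf2, the inactive rhomboid that brings the protease ADAM17 to the cell surface (chromosome 11, 116707480 to 116707539), went from 2.06, 2.03 and 1.92 to 3.43, 3.53 and 3.19, a rise of 1.38 (SE 0.12, adjusted p = 0.000589). The spread of each group was small beside these changes, and the groups did not overlap. Traf5, a receptor adaptor, rose by 1.43 (adjusted p = 0.000693), Jdp2, a repressor of AP-1, by 1.60 (adjusted p = 0.000641), Dtx4, an E3 ubiquitin ligase, by 1.60 (adjusted p = 0.0011), Klf7, a transcription factor, by 1.97 (adjusted p = 0.00068), and Klhl25, an adaptor of the cullin-3 ligase, by 1.88 (adjusted p = 0.00113). Tnfrsf1b, a receptor of tumour necrosis factor, rose by 1.64 (adjusted p = 0.000641) by its brightest probe and by 0.92 by another (adjusted p = 0.0785). Btg1, an inhibitor of proliferation (rise 1.45, adjusted p = 0.000649), likewise had a further probe that missed the threshold. Pvr, the poliovirus receptor, rose by 1.70 (adjusted p = 0.000589). Its further probes rose by 1.60 and 1.99 (adjusted p = 0.000772 and 0.000387) and by 1.24 and 0.94 (adjusted p = 0.0564 and 0.0835). A further Klhl25 probe rose by 3.03 (adjusted p = 0.000142), beyond this size class. Bmp2, a bone morphogenetic protein, was above background on 1 of 3 controls, and its change of 2.00 (adjusted p = 0.000618) had adjusted p = 0.295 without the block.

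Falling genes were fewer and smaller. The largest fall among genes measured in both groups was that of Thbd, thrombomodulin, a cofactor that turns thrombin to an anticoagulant role (chromosome 2, 148145356 to 148145415). Thbd read 0.98, 1.38 and 1.57 in control cells and -1.61, -1.25 and -0.06 with apoA-I, and fell by 2.28 (SE 0.33, 4.86-fold lower, adjusted p = 0.00769). The treated arrays all lay below the controls, with replicate 3 nearest to them. Lpar6 (chromosome 14, 67921380 to 67921439) read 1.63, 1.90 and 2.21 and -0.35, -0.69 and 0.50, and fell by 2.09 (SE 0.24, adjusted p = 0.00205), again with no overlap. It is the gene among those named here that fell and passed without the block too (adjusted p = 0.0221).

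Genes of survival, death and growth arrest had 8 of 27 measured members higher, among them Cdkn1a by 2.35 (adjusted p = 0.00177), Gadd45b by 1.25 (adjusted p = 0.0225, lost without 5 of the 6 null arrays), Cflar and Fas, and 1 lower (median 0.40). That member, Gadd45g, a stress sensor that slows growth (chromosome 13, 50882456 to 50882515), read 6.68, 5.88 and 5.99 in control cells and 4.42, 2.98 and 4.60 with apoA-I, and fell by 2.18 (SE 0.41, adjusted p = 0.0267). Bmf, a BH3-only inducer of apoptosis (chromosome 2, 118269632 to 118269691), read 0.58, 1.03 and 1.27 and -1.17, -2.17 and -0.24, and fell by 2.15 (SE 0.41, adjusted p = 0.028). In both genes treated replicate 2 was the lowest array and the groups did not overlap. A further Bmf probe changed by 0.80 with adjusted p = 0.0629, in the opposite direction. Cdt1, which licenses replication origins, fell by 1.17 (adjusted p = 0.0114).

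The falls also took in a cannabinoid receptor and several transcription factors. Cnr2, cannabinoid receptor 2 (chromosome 4, 135298117 to 135298176), read 1.52, 1.59 and 1.28 and -0.26, -1.38 and 0.18, and fell by 1.95 (SE 0.44, adjusted p = 0.0475). Cebpa, the myeloid factor C/EBP-alpha (chromosome 7, 32011212 to 32011271), read 3.25, 3.15 and 2.05 and 1.58, 1.25 and 0.91, and fell by 1.57 (SE 0.24, adjusted p = 0.00991). For both, every treated array was below every control. Hhex, a homeobox factor of blood cells, fell by 1.38 (adjusted p = 0.0345), Irf8, a factor of monocyte development, by 1.14 (adjusted p = 0.0457), and Atf3, a stress-induced repressor of inflammatory genes, by 1.17 (adjusted p = 0.0252). The call of Irf8 was lost without any 1 of the 6 null arrays, and that of Atf3 without null control 1, 2 and 3 or apoA-I 1 and 2. A further Irf8 probe, not tried with arrays left out, changed by -1.68 (adjusted p = 0.00669). Of 30 macrophage identity genes 2 rose and 1, Cebpa, fell, and the median was 0.00. Socs6, of the cytokine signalling inhibitors, fell by 1.31 (adjusted p = 0.0237) with groups that overlapped, while Socs3 rose by 3.40 (adjusted p = 6.85e-05) and Cish by 3.03 (adjusted p = 0.00743).

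The other named falls had mixed roles. Klhl21, a cullin-3 adaptor (chromosome 4, 151006977 to 151007036), fell by 1.67 (SE 0.26, adjusted p = 0.0103), from 0.84, 0.38 and 1.23 to -0.75, -1.86 and 0.06. Frat2 and Frat1, which bind the kinase GSK3, fell by 1.61 (adjusted p = 0.0282) and 1.51 (adjusted p = 0.0301). Pdp1, the phosphatase that activates pyruvate dehydrogenase, fell by 1.43 (adjusted p = 0.0202). Lipt2, of the pathway that supplies the lipoate cofactor of such enzymes, fell by 1.27 (adjusted p = 0.011). These are a pair of genes that serve pyruvate oxidation, chosen by rule and not as a list. Arrdc3, an arrestin-like adaptor that fell by 1.78 (adjusted p = 0.00397), was above background on 1 of 3 treated arrays. Rhov, Atp23, Sh2d3c, Calhm2, Zrsr1, Fhdc1, Ttc30b and Rab3il1 fell by 1.11 to 2.13, with adjusted p from 0.012 to 0.0449.

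Most falls rested on the pairing and on single arrays. Of the 22 falls named by size or p, the calls of Lpar6 and Arrdc3 held with each null array left out, that of Thbd was lost without null apoA-I 2 and that of Klhl21 without null control 1 and 2. Cebpa, Cdt1, Fhdc1, Lipt2, Ttc30b and Rab3il1 lost their calls without null control 1 and 2 or apoA-I 2, and Gadd45g, Bmf, Rhov, Pdp1 and Zrsr1 without null control 1 and 2 or apoA-I 1 and 2. Cnr2, Atp23, Sh2d3c and Calhm2 lost theirs without null control 1, 2 and 3 or apoA-I 1 and 2, Frat1 without control 1, 2 and 3 or apoA-I 2 and 3, Hhex without control 1 and 2 or apoA-I 1, 2 and 3 and Frat2 without any 1 of the 6. A530053G22Rik, which the naming rule leaves out, had the largest fall of all genes, and it was named after its values were seen.

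**Figure D3:**
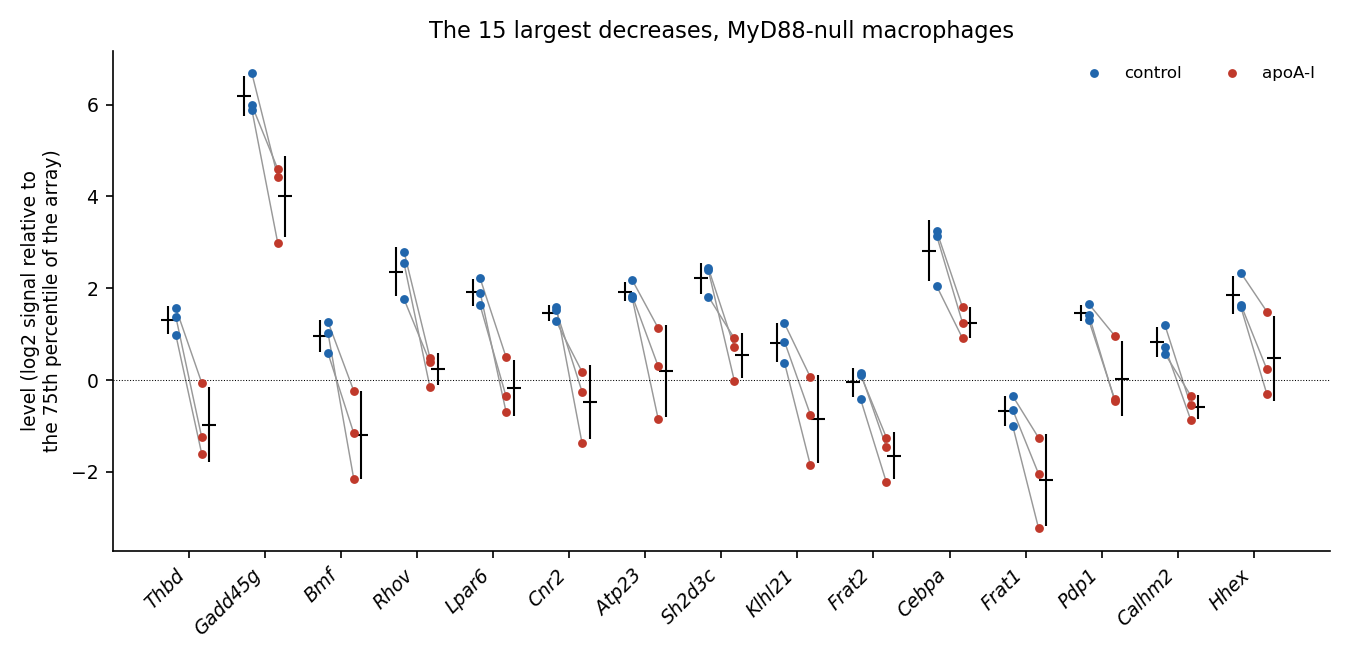
Levels on each MyD88-null array (log2 signal, scaled to each array's 75th percentile) of the 15 largest falls measured in both groups; points are arrays, thin lines join arrays of one replicate number, and bars are the mean ± SD of 3 arrays. Every line runs downward, from Thbd with a change of -2.28 to Hhex with -1.38, and the treated array of replicate 3 often lies nearest to its control.

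Zinc finger genes, most of them repressors of transcription, had the lowest median of the 36 lists, -0.28 over 148 measured genes against 0.05 for all genes tested. The median was -0.05 with normexp background correction and -0.72 with median centring, which lowers all genes. In 79 of the 148 (53.4%) all 3 pairs were lower with apoA-I, against 3675 of the 16742 genes tested (22%). However, 4 passed the threshold downward (2.70%, against 0.609% of all genes tested), Zfp53, Zfp472, Zfp61 and Zfp120. Another 3 passed upward (2.03%, against 3.46%), Zfp689, Zfp263 and Zfp607a. The 4 falls were 1.05, 0.91, 0.79 and 0.70 (adjusted p = 0.0264, 0.034, 0.0457 and 0.0284). Each of these 4 calls was lost without any 1 of null control 1, 2 and 3 or apoA-I 1 and 2, and that of Zfp61 also without apoA-I 3.

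Several programmes had no called member in either direction in the fit used here. These were cholesterol synthesis (26 genes, median -0.06), cholesterol efflux and the liver X receptor pathway (20 genes, median -0.11), lipid uptake and storage (23 genes, median -0.06), prostaglandin and leukotriene genes other than Ptgs2 (19 genes, median 0.13), major histocompatibility class I (17 genes, median 0.18), oxidative phosphorylation (22 genes, median -0.11), DNA repair (23 genes, median -0.17) and peroxisomes (25 genes, median -0.16). With 3 arrays a group, small changes in these lists would not have been detected. The absence of calls also depended on the setting. With probes above background on every array of the series, cholesterol efflux had 2 lower members, lipid uptake 1 lower and class I 1 higher. Oxidative phosphorylation and peroxisomes reached 1 lower call each under other settings. Cholesterol synthesis, prostaglandin and DNA repair genes had no call under any setting. Abca1, the transporter that hands cholesterol to apoA-I (chromosome 4, 53044891 to 53044950), read 2.28, 2.35 and 2.52 in control cells and 2.67, 3.56 and 3.39 with apoA-I, a change of 0.83 (SE 0.23) that missed the threshold (adjusted p = 0.0854). Abcg1, which exports cholesterol to high-density lipoprotein (chromosome 17, 29310847 to 29310906), read 4.55, 4.64 and 4.59 and 4.04, 3.75 and 4.09, a change of -0.63 (SE 0.15, adjusted p = 0.0606). The treated arrays of Abca1 all lay above the controls and those of Abcg1 all below, without either passing.

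Other lists held 1 to 3 higher calls each. The 27 cell cycle genes had 1, Mki67, a proliferation marker that rose by 3.34 (SE 0.28, adjusted p = 0.000397), from -1.04, -0.18 and -0.77 to 2.75, 2.79 and 2.50, while the list's median was 0.04. Of 20 unfolded-protein and stress genes 2 rose, Chac1, which degrades glutathione, by 1.53 (adjusted p = 0.00402) and Herpud1, of the endoplasmic reticulum, by 1.03 (adjusted p = 0.0164, and 0.335 without the block). Of 12 inflammasome and caspase genes 3 rose: Mefv, the pyrin gene, by 3.40 (adjusted p = 0.000761), Nlrp3 by 2.34 (adjusted p = 0.00218, and 0.249 without the block) and Casp4. Of 20 oxidative stress, metal and heat shock genes 3 rose, among them Txnrd1, thioredoxin reductase, by 0.78 (adjusted p = 0.0174, and 0.111 without the block), while Hmox1, haem oxygenase, had a change of -0.09 (adjusted p = 0.822). Of 20 hypoxia genes 1, Egln3, rose, by 1.45 (adjusted p = 0.0125, and 0.301 without the block). The calls of Herpud1, Txnrd1 and Egln3 were also lost without 3, 4 and 3 of the 6 null arrays. As shares of measured members, the higher calls were 3.7% for cell cycle and 5% for hypoxia, near the 3.46% of all genes tested. They were 10% for unfolded protein and stress, 15% for oxidative stress, metal and heat shock and 25% for inflammasome and caspase genes.

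Markers of other cells mostly did not pass. Their sums here are of linear signal, in units of the array's 75th percentile. For comparison, the sum of the 7 macrophage markers rose in each same-numbered pair. It went from 732.5 to 1260, from 616.0 to 679.2 and from 635.1 to 794.1, although the median change of these markers was -0.13. The 11 mesothelial and fibroblast markers, all well above background on all 6 null arrays, summed to 68.2, 235 and 55.6 in controls 1, 2 and 3 and to 66.6, 200.7 and 108.6 with apoA-I, so this sum was highest in replicate 2 of each group. The 6 measured mast cell markers summed to 2.44 to 4.21 in controls and 2.66 to 4.10 with apoA-I, and no member of either list was called. Lck, a T cell kinase, rose by 0.84 (adjusted p = 0.0215), and Zbtb46, a dendritic cell factor, by 2.19 (adjusted p = 0.0239), calls lost without null control 2 and 3 or apoA-I 2 for Lck and control 2 and 3 or apoA-I 1, 2 and 3 for Zbtb46. The 6 measured T cell markers summed to 1.684, 1.094 and 0.685 in controls and to 2.956, 2.226 and 1.101 with apoA-I, and the 3 measured dendritic cell markers to 1.747, 1.059 and 0.326 and to 2.608, 2.355 and 0.816. Both sums were higher with apoA-I in all 3 pairs, with median changes of 0.82 and 0.88, although the ranges of the groups overlapped. None of the measured B cell, natural killer, neutrophil, eosinophil, red cell or resident macrophage markers passed. Some lists were measured in part: 1 of 5 natural killer, 5 of 9 neutrophil, 3 of 5 eosinophil and 1 of 4 red cell markers. The natural killer marker read 0.044 to 0.062 in controls and 0.070 to 0.231 with apoA-I. The neutrophil markers summed to 1.15 to 1.31 in controls and 1.33 to 1.72 with apoA-I, so in neither case did the ranges overlap. The part of other cells in the response was not tested, and more transcript in each cell cannot be told apart from more cells that hold it. Nor was the rise of dim null genes as a class tested apart from these marker changes. Cyclic loess lowered the change of the natural killer marker from 1.08 to 0.48. It lowered that of the T cell marker Cd3d from 0.58 to 0.31 and of the dendritic cell marker Flt3 from 0.88 to 0.51. Cd3e, Lck and Zbtb46 moved less, from 0.96, 0.84 and 2.19 to 0.88, 0.81 and 2.09.

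The counts of several lists also rested on the replicate block. Without it the higher members numbered 7 of 16 for the NF-kappaB circuit, 5 of 14 for the guanylate-binding and immunity-related GTPases, 5 of 19 for the surface molecules, 3 of 23 for the early response genes, 2 of 22 for the metabolite receptors, 2 of 23 for the Toll-like receptors and adaptors and 5 of 27 for survival, death and growth arrest, while cytokines had 9 of 22 and chemokines 11 of 16.

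**Figure D4:**
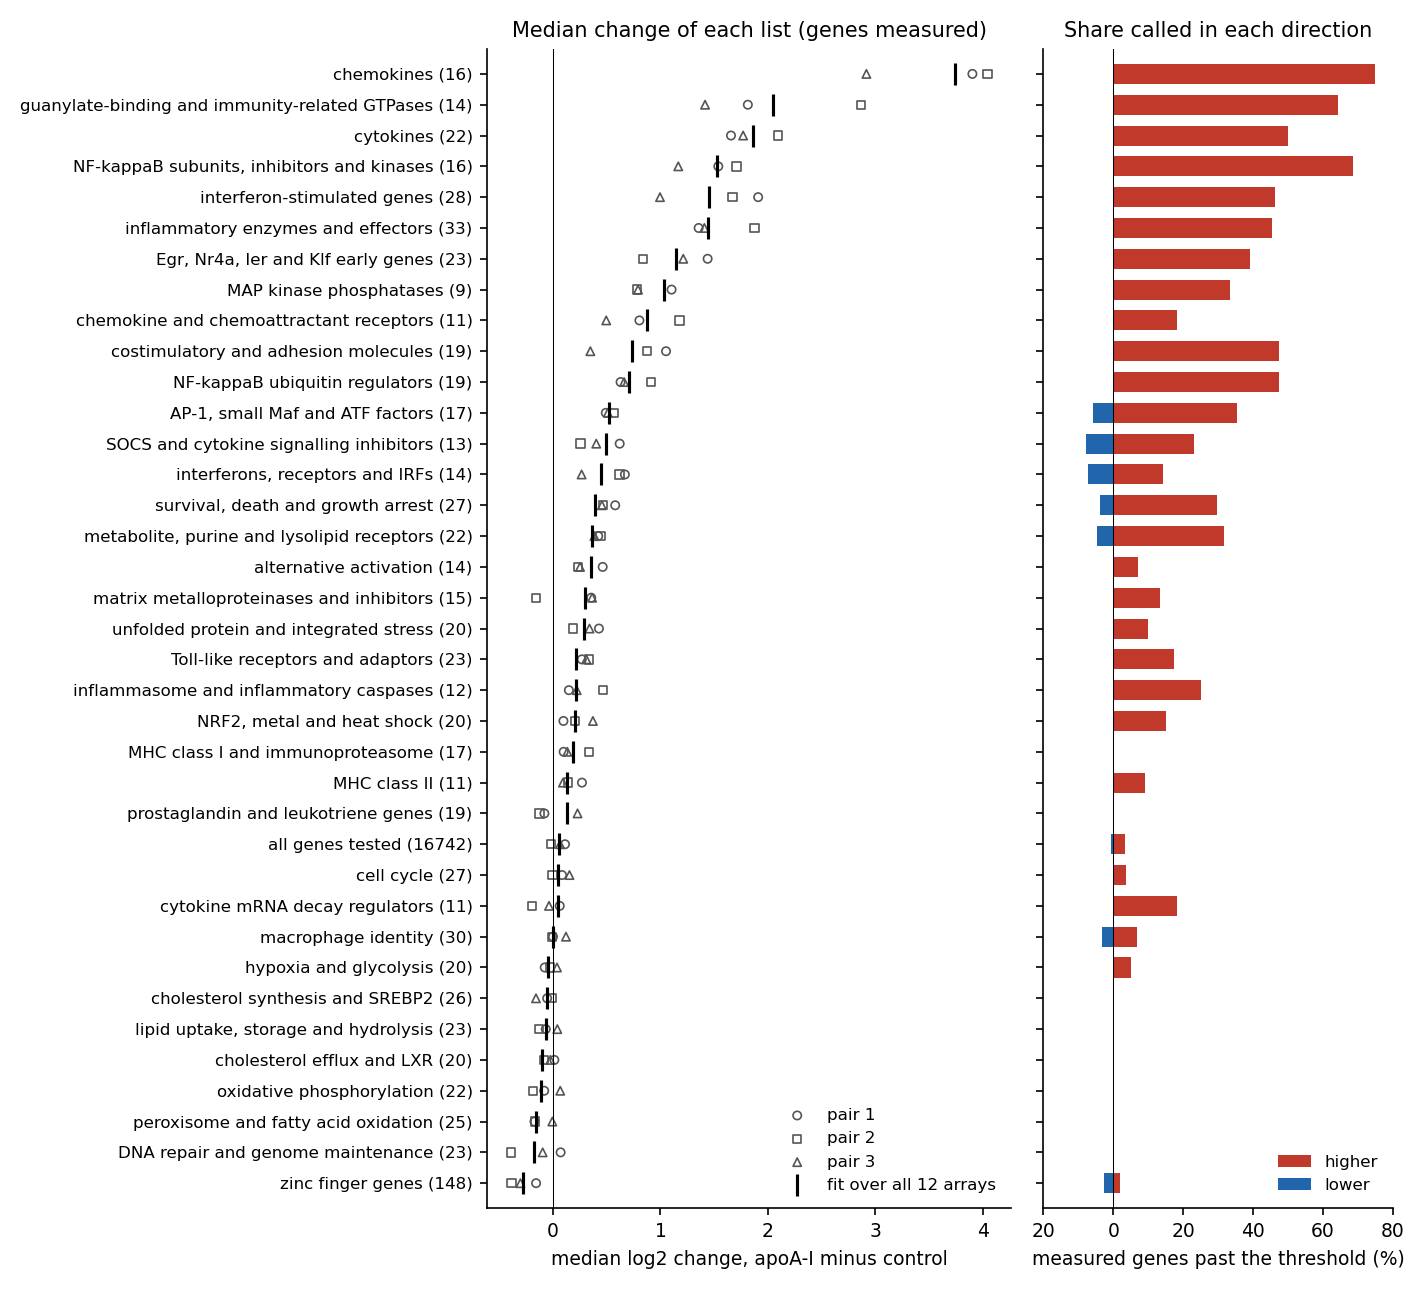
Median log2 change with apoA-I in MyD88-null cells (left, for pairs 1, 2 and 3 and for the fit) and share of measured genes past the threshold (right, higher to the right and lower to the left) for 36 gene lists and for all genes tested, with the number measured in brackets. Chemokines have the highest median, 3.74, and zinc finger genes the lowest, -0.28.

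The same fit set the null response beside that of C57BL/6 cells, where 396 genes (2.37%) were higher and 174 (1.04%) lower with apoA-I. Of the 580 genes higher in null cells 274 (47.2%) were called higher in C57BL/6 cells too, which is 69.2% of the calls there. Of the 102 lower genes 47 (46.1%) were called lower in C57BL/6 cells, or 27.0% of those. No gene was called in opposite directions, and 526 of the 580 and 100 of the 102 had a C57BL/6 change of the same sign. The median change of the 580 was 1.61 in null and 1.00 in C57BL/6 cells, and that of the 102 was -0.98 and -0.82. Because these genes were chosen for passing in null cells, their larger null changes are a description and not a comparison of the genotypes.

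The difference of the responses was itself tested, and no gene passed: the smallest adjusted p was 0.0819, with 1233 genes at an unadjusted p under 0.05 in limma's test. Nfkbie came nearest, with 4.65 in null and 1.39 in C57BL/6 cells, a difference of 3.26 (adjusted p = 0.0819). Relb had a difference of 1.34 (adjusted p = 0.167), Ralgds of 1.37 (adjusted p = 0.167), Fas of 1.64 (adjusted p = 0.226) and Cxcl10 of 4.11 (adjusted p = 0.235), all larger in null cells. Il1a ran the other way, with 3.11 in null and 5.72 in C57BL/6 cells, a difference of -2.61 (adjusted p = 0.167). For Fas the null minus C57BL/6 level was -2.11 in control cells (adjusted p = 0.00224) and -0.47 in treated cells (adjusted p = 0.338). For Cxcl10 it was -3.43 (adjusted p = 0.0168) and 0.68 (adjusted p = 0.513). Thus Fas and Cxcl10 rose from lower null controls to treated levels not called different. For Il1a the level differences were -1.02 (adjusted p = 0.16) and -3.63 (adjusted p = 0.00205). Rnd1, by its brightest probe, had changes of 6.58 and 5.32, a difference of 1.26 (adjusted p = 0.383). Under other settings between 0 and 6 genes passed this test.

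**Figure D5:**
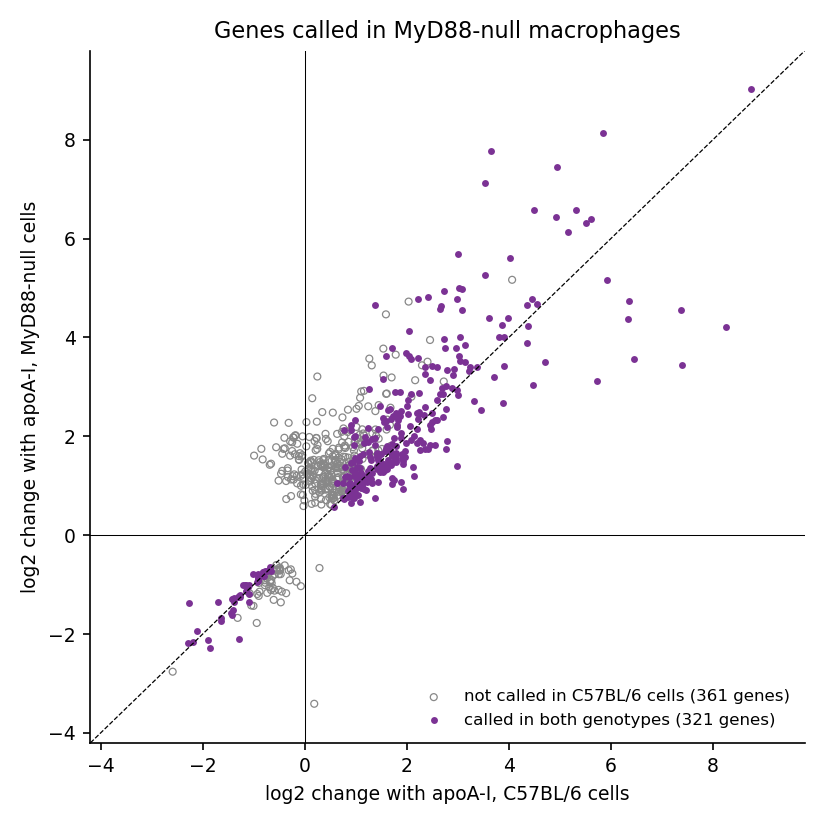
Log2 change with apoA-I in MyD88-null cells (vertical axis) against that in C57BL/6 cells (horizontal axis) for the 682 genes called in null cells; filled points are the 321 also called in C57BL/6 cells in the same direction, open points the 361 that were not, and the dashed line marks equal changes. Most points lie in the quadrants of equal sign, and the open points crowd above the line at small C57BL/6 changes.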

How the data were processed

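Labelled RNA (500 ng per sample, Cy3) from 12 samples, 3 in each of 4 groups, was hybridised to one-colour Agilent arrays. Per the file headers, the deposited processed intensity is the spot signal after background correction and detrending within an array by Feature Extraction, versions 9.5.1.1 and 9.5.3.1; the deposited mean and local background intensities are raw. A deposited value table tracks the log10 of the processed intensity (correlations of 0.99257 to 0.99974, column medians of 1.8225 to 1.8676), with scaling and centring unknown, and served as an alternative. Saturated probes numbered 0 to 6 an array.

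Spots of a probe were averaged, log2 values had the array's 75th percentile subtracted, and 24350 probes well above background on all 3 arrays of a group were kept. The brightest kept probe stood for a gene, which gave 16742 genes. Of 41174 probes 22951 were named by accession, 131 by another accession, 6582 by symbol and 3073 by synonym through RefSeq genes of assembly GRCm38.p6, and 8437 kept the file's name. Probe positions are those of the array files (build mm7); no exon annotation of mm7 was used. Promoter windows are RefSeq's.

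Limma 3.58.1 (R 4.3.3, data.table version 1.17.8) fitted group means and the replicate number as a block to all 12 arrays, with 6 residual and 2.455 prior degrees of freedom; tests were two-sided, with Benjamini-Hochberg adjustment across the genes tested and a threshold of 0.05. The fit was tested on simulated data. Null control and apoA-I arrays of one number had deviations from the group mean that correlated at 0.72, 0.51 and 0.86. Those of unlike numbers correlated at -0.81 to 0.18. Since the 3 deviations of a group sum to 0, the values of unlike numbers are no separate support. The null arrays numbered 3 also shared a slide and a scan day, which those numbered 1 or 2 did not. The numbers were taken to pair the samples, which the labels do not state. SE is the standard error of a log2 change.

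Named genes were the 12 largest rises and 15 largest falls measured in both groups, the 6 largest bounds, the 12 smallest p among rises of 1 to 2 and of 2 to 3, the 10 smallest p among falls of 1 to 2, and up to 4 called and 2 defining members of each list. Further called members of the lists are also named in places. The members and lists were chosen with earlier results of these data known. Some list results are not reported here.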

Additional observations from a re-analysis of the deposited data

Results flagged for a closer look

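For 2 named genes that did not pass in either genotype, all 3 null pairs were lower with apoA-I and all 3 C57BL/6 pairs higher. For H2-Aa, a chain of major histocompatibility class II, the null pairs were -0.69, -0.03 and -0.09, and the difference of the responses, null minus C57BL/6, was -0.536 (limma's adjusted p = 0.86). For Pex2, a peroxisome assembly gene, they were -1.04, -0.51 and -0.06, with a difference of -0.615 (limma's adjusted p = 0.792). Of all 16742 genes tested 529 had pairs that ran fully opposite in the genotypes.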

How the results depend on the processing

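Against 580 higher and 102 lower genes, the fit to the 6 null arrays alone gave 997 and 48, the replicate block within each genotype 1176 and 178, and no replicate block 189 and 2. Slide as a fixed block gave 222 and 5, and scan day 328 and 29. Quantile normalization gave 358 and 155, median centring 237 and 183, the values of the deposited matrix 382 higher, no filter on dim probes 336 and 15, cyclic loess (chosen after seeing the data) 165 lower and a variance trend 162 lower. Without both samples of conflicting description 160 and 3 genes passed, and with the treatments of the descriptions 1 and 0. Leaving out arrays or replicate numbers gave 72 to 587 higher and 0 to 154 lower genes; with 0 lower, 1650 genes had an unadjusted p under 0.05 in limma's test. The difference of the responses, with 0 genes, had 2 with slide as a random block, 3 with normexp, 2 with quantile normalization, 6 with median centring, 1 with probes above background on all 12 arrays, 3 with cyclic loess, 4 with a variance trend and 0 to 1 with arrays left out. In no setting did a called gene pass in the other direction. Called genes kept their direction in each setting that measured them, while uncalled genes and list medians could change sign. Fos, which was not called, ranged from -0.67 to 0.44. The median of the Toll-like receptors and adaptors went from 0.22 to -0.23 with median centring. The causes of these shifts were not tested.

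The lower Myd88 level in null control cells (-1.52) missed the threshold without the replicate block (-1.52), with slide as a fixed block (-1.37), median centring (-1.30), without both conflicting samples (-1.59), with the descriptions' treatments (-1.35) and without a replicate number (-1.59 to -1.48). In treated cells (-1.15) it did so without the block (-1.15), with slide (-1.12), scan day (-1.10), median centring (-1.31), no filter (-1.15), without the conflicting samples (-1.21), with the descriptions' treatments (-0.97) and with arrays left out (-1.23 to -1.01).

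With 3 arrays a group, signal over background limits what dim genes can show: 60 higher genes were above background on no control array, and their rises are bounds.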
